A study of Mus musculus with 2 samples.

Results

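Cytosolic ribosomal protein genes were taken as every gene of the 2 count tables whose symbol begins with Rpl or Rps and a digit, without the symbols holding -ps (pseudogenes) and without the Rps6k kinases. The rule found 81 genes, 48 Rpl and 33 Rps, among the 14371 genes listed in either table. Of these, 80 were listed for Gata3KO and 81 for Wt; Rpl39l was listed for Wt alone. The rule left out 8 rows with -ps and 8 Rps6k rows. It also misses ribosome components with other names, of which Rplp0, Rplp1, Rplp2, Rpsa and Fau are described apart. It takes in Rps19bp1, whose product binds Rps19 and the deacetylase Sirt1 and is not a ribosomal protein.

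A cytosolic ribosome is a small subunit, which reads the mRNA, and a large subunit, which joins amino acids. Rps genes encode proteins of the small subunit and Rpl genes those of the large one, and a ribosome in general holds a single copy of each. Their mRNAs are short, stable and among the most abundant of any cell, and many begin with a C followed by pyrimidines (C or T in DNA), the TOP motif, through which mTOR signalling and the protein Larp1 set their translation. Monocytes that enter injured muscle turn into macrophages and change how much they grow and secrete. The share of ribosomal protein mRNA is often used beside the mitochondrial share to judge single-cell libraries.

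The Gata3KO library came from C57BL/6:Cx3cr1CRExGata3fl/fl mice, in which Cre is driven from Cx3cr1, a gene of monocytes, macrophages and some dendritic cells, so that Gata3 is removed from those cells and not from all cells of the mouse. The Wt library came from C57BL/6 mice; the labels name neither the Cre nor the floxed allele for it. In both groups the tibialis anterior received 50 µl of 10 µM cardiotoxin, a venom toxin that kills muscle fibres, and cells were sorted on day 4 as Zombie aqua-, Ly6G-, CD45+ and CD11b+, which is live myeloid cells without neutrophils. The labels give no age, sex or number of mice. About 8000 cells per library were loaded for 3' single-cell RNA sequencing with molecular identifiers (UMIs, each counting 1 captured mRNA). With 1 library per group and cells that are not replicates, no test was possible, and a difference between libraries may be technical. Intervals below are at 95% and cover counting error only, except those of medians, which are taken over genes.

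Gata3KO had 3434 barcodes with a median of 3059 UMIs, and Wt had 3290 barcodes with a median of 2616. Mitochondrial genes made up a median of 21.8% of UMIs per barcode in Gata3KO and 15.7% in Wt. Cells were kept at 500 or more UMIs, 200 or more genes and at most 10% mitochondrial UMIs, which left 650 cells in Gata3KO and 990 cells in Wt. Shares and levels are given over non-mitochondrial UMIs, levels as CPM, counts scaled to the same total in each group of cells, which for a 3' assay do not depend on transcript length. Gata3 itself had 8 UMIs in each library over every barcode, too few to check the labels. The libraries had 2 barcodes in common and 0 among kept cells. Clustering without ribosomal protein and mitochondrial genes gave 8 states, of which 6 held at least 20 cells of each library. States 1, 2 and 3 carried monocyte or macrophage markers and form the class called monocytes and macrophages here, with 399 Gata3KO cells and 428 Wt cells. In that class the pan-myeloid markers summed to 29624 CPM in Gata3KO and 23393 CPM in Wt, and the 5 T and NK cell markers listed to 0.913 CPM in Gata3KO and 8.94 CPM in Wt, with Cd3e and Nkg7 at 0 in both.

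The 30 bases around the start of transcription, 15 before it and 15 from it on, are printed for 8 genes, because their levels are the most and the least different between barcodes of low and high mitochondrial share (described further on). They are the 4 genes with the largest and the 4 with the smallest decrease in Gata3KO among the genes found in RefSeq's table of starts (build GRCm38.p6), leaving out Rps19bp1. Rpl30 and Rpl36 had no entry. Capitals mark the longest run of C and T. Where a gene had several annotated starts, the window with the longest run is printed. The 4 genes with the largest decrease come first.
Rpl10: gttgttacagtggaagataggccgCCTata
Rps15a: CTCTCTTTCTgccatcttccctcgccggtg
Rpl9: acgcagggCCCTgacggattacaagaacgt
Rps7: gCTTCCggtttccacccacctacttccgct
Rpl26: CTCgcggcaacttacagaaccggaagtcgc
Rpl6: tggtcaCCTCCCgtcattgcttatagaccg
Rps15: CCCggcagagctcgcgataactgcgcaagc
Rpl31: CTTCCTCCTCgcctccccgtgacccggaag
They lie at chrX:74270801-74270830 (plus strand), chr7:118116133-118116162 (minus), chr5:65391417-65391446 (minus), chr12:28635939-28635968 (minus), chr11:68901551-68901580 (plus), chr5:121204486-121204515 (plus), chr10:80292416-80292445 (plus) and chr1:39367836-39367865 (plus). Of the 81 genes, 62 were found in the table. A run of at least 6 C or T, on the strand of the gene, was sought in the windows of all annotated starts of a gene. It lay in any of them for 38 of these 62 genes (61.3%), against 32.7% of all 27025 symbols of the table. Counted by start, it lay in 39 of 74 windows (52.7%), against 29.2% of all starts. A C at any annotated start itself followed by 4 or more C or T was present in 13 of the 62 genes (21.0%), against 3.01% of all symbols. An example of a long run is Rpl34, with 18 bases.
Rpl34: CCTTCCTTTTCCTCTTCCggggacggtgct
This window lies at chr3:130730323-130730352 on the minus strand. These are matches of letters at annotated starts, which can be a few bases off the start used in these cells.

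In monocytes and macrophages the 81 genes made up 12.2% of non-mitochondrial UMIs in Gata3KO and 11.9% in Wt. Most were abundant: 61 genes were at 1000 CPM or more in Gata3KO and 60 in Wt, and 4 were under 100 CPM in each library. The median gene stood at 1531 CPM in Gata3KO and 1480.5 CPM in Wt. The order of levels was nearly the same in both libraries, with a Pearson correlation of 0.995 across the 81 genes on the log2(CPM + 10) scale; genes are not independent replicates, and both libraries share the chemistry and the reference.

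Among the highest levels in both libraries were those of Rpl41, Rps29, Rpl23, Rps24 and Rpl13. Rps24 had 2875 CPM in Gata3KO and 3332 CPM in Wt and was the top gene in Wt. Rpl41, the smallest ribosomal protein, had 3058 CPM in Gata3KO and 2784 CPM in Wt and was the top gene in Gata3KO. Rps29, a zinc-binding protein of the small subunit head, had 2979 CPM in Gata3KO and 2875 CPM in Wt. Neighbours in this order differ by little: Rpl23 had 2884 CPM and Rpl13 2799 CPM in Gata3KO, against 2766 CPM for Rpl23 and 2802 CPM for Rpl13 in Wt.

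The low end was made up mostly of paralogs, second copies whose expression is often restricted to a tissue. Rpl3l, the form of Rpl3 used in heart and skeletal muscle fibres, had 5 UMIs in Gata3KO and 10 UMIs in Wt. Rpl39l, the testis form of Rpl39, was not listed in Gata3KO and had 5 UMIs in Wt. Rpl7l1 had 80.8 CPM in Gata3KO and 75.3 CPM in Wt. Rps19bp1, no paralog, was also low, with 39.6 CPM in Gata3KO and 32.0 CPM in Wt. Rpl22l1, a paralog of Rpl22, was higher than these, with 269.9 CPM in Gata3KO and 294.2 CPM in Wt, and Rpl36al, a paralog of Rpl36a, had 446.9 CPM in Gata3KO and 441.0 CPM in Wt. Near-identical copies and pseudogenes can split or take reads of these genes, so that levels of paralogs and of their parents are uncertain. The 8 rows with -ps were low beside their parents: the highest, Rpl10-ps3, had 164.1 CPM in Gata3KO and 188.6 CPM in Wt.

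Comparing Gata3KO with Wt in monocytes and macrophages, the share differed by 0.265 percentage points (interval 0.225 to 0.305), higher in Gata3KO. This direction depends on the scale: the difference was -0.0512 points when Malat1, Gm42418 and AY036118 were left out of the total, and -0.866 points over every deposited barcode. Gm42418, a row that collects ribosomal RNA reads, made up 1.61% of non-mitochondrial UMIs of the class in Gata3KO and 3.52% in Wt, and Malat1, a nuclear RNA, 1.70% in Gata3KO and 2.20% in Wt. Cells of the class also differed in depth, with a median of 17159 UMIs in Gata3KO and 8599 UMIs in Wt. When each state counted alike, the difference was 1.62 points.

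Of the 81 genes, 79 had at least 100 UMIs over both libraries of the class (all but Rpl3l and Rpl39l), which is where ratios are given. Of these, 47 were higher and 32 lower in Gata3KO, with a median log2 ratio of 0.040 (-0.0079 to 0.089), beside a median of 0.059 over the 3215 genes compared. The interval of this median is taken over the 79 genes, which are not independent replicates, and is given as a description. Among those 3215 genes 1861 were higher and 1354 lower in Gata3KO. At least 1.2-fold higher were 5 of the 79, against 23.9% of all genes compared, and at least 1.2-fold lower was 1, against 18.9%. Both counts were below these shares, and the log2 ratios of the 79 genes ran from -0.40 to 0.47.

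Rpl3, which lies near the catalytic centre of the large subunit, had the highest ratio. It had 1640.5 CPM in Gata3KO and 1181 CPM in Wt, a log2 ratio of 0.47 (0.43 to 0.52). Rps27l, a p53-responsive paralog of Rps27, had 405.5 CPM in Gata3KO and 303.6 CPM in Wt, a log2 ratio of 0.42 (0.32 to 0.51). Rps2, which lines the channel through which mRNA enters, had 2004 CPM in Gata3KO and 1555 CPM in Wt, a log2 ratio of 0.37 (0.32 to 0.41). Rpl10, which joins the large subunit in one of the last steps of its maturation, had 1475 CPM in Gata3KO and 1164 CPM in Wt, a log2 ratio of 0.34 (0.29 to 0.39). The ratios of these 4 genes were above 0 under each of the 15 alternatives run, with a lowest value of 0.021 for Rps2.

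Other genes at the upper end were Rps19bp1 (0.31), Rps3a1 (0.26) and Rps19 (0.22), the last a small subunit protein needed to mature 18S rRNA and often mutated in Diamond-Blackfan anaemia in humans. The interval of Rps19bp1 ran from 0.0025 to 0.62, and its ratio was -0.14 under a stricter cell filter (1000 UMIs, 5% mitochondrial). Rps19 had 2519 CPM in Gata3KO and 2158 CPM in Wt.

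The lowest ratio belonged to Rps27rt, an intronless copy of Rps27, with 204.0 CPM in Gata3KO and 269.8 CPM in Wt, a log2 ratio of -0.40 (-0.52 to -0.29). Rps24 (-0.21), Rpl24 (-0.21), Rpl27 (-0.17), Rps13 (-0.17), Rps20 (-0.15), Rps9 (-0.14) and Rps14 (-0.13) came next. Rps24, another gene mutated in Diamond-Blackfan anaemia, matures 18S rRNA, Rpl24 forms a bridge between the subunits, and Rps14 sits on the platform of the small subunit. Of these, 5 were above 0 when each state counted alike: Rps9 (0.29), Rps14 (0.11), Rpl27 (0.06), Rps20 (0.02) and Rps24 (0.02). Rps20 (0.07) and Rpl24 (0.00046) were also above 0 with the stricter cell filter. Rps27rt and Rps13 stayed below 0 under each of the 15 alternatives.

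Grouped by role, the 5S particle and p53 genes (Rpl5, Rpl11, Rpl23 and Rps27l) had 3 genes higher and 1 lower, with a median log2 ratio of 0.13; Rpl5 and Rpl11, which carry 5S rRNA and bind the p53 inhibitor Mdm2, stood at 0.20 and -0.034. Of the 7 genes of proteins at the exit of the peptide tunnel, 1 was higher and 6 lower, with a median of -0.035. Of the 5 genes of proteins along the mRNA channel, 3 were higher and 2 lower, with a median of 0.099. Of the 18 genes mutated in Diamond-Blackfan anaemia in humans, 10 were higher and 8 lower, with a median of 0.035. Among 13 genes with a paralog, 8 were higher and 5 lower, with a median of 0.034. Genes of each role stood on both sides of 0, and of all 3215 genes compared 1861 were higher and 1354 lower.

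The states differed far more in ribosomal protein share than the libraries did. The conventional dendritic 2-like state 5, led by Cd209a and Klrd1, had the highest share, 22.2% in Gata3KO and 17.8% in Wt. State 4, an unnamed state led by collagen genes and with cycling markers, followed in Wt with 15.7% in Gata3KO and 16.1% in Wt. State 2, led by the monocyte genes Hp, Plac8 and Ly6c2 and called interferon-responding phagocyte-like from its markers, had 15.7% in Gata3KO and 13.01% in Wt. Its score for that list (1.52) was close to that for inflammatory monocytes (1.49), and within it the interferon markers summed to 1140.1 CPM in Gata3KO and 3172 CPM in Wt. The Gpnmb macrophage-like state 1, led by Fabp5 and Gpnmb, had 12.0% in Gata3KO and 11.3% in Wt. The stress and chemokine macrophage-like state 3, led by Cxcl2, Gdf15 and Arg1, had 11.9% in Gata3KO and 10.5% in Wt. State 0, an unnamed state of shallow barcodes led by Gm42418, had the lowest share, 4.78% in Gata3KO and 4.71% in Wt.

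**Figure D1:**
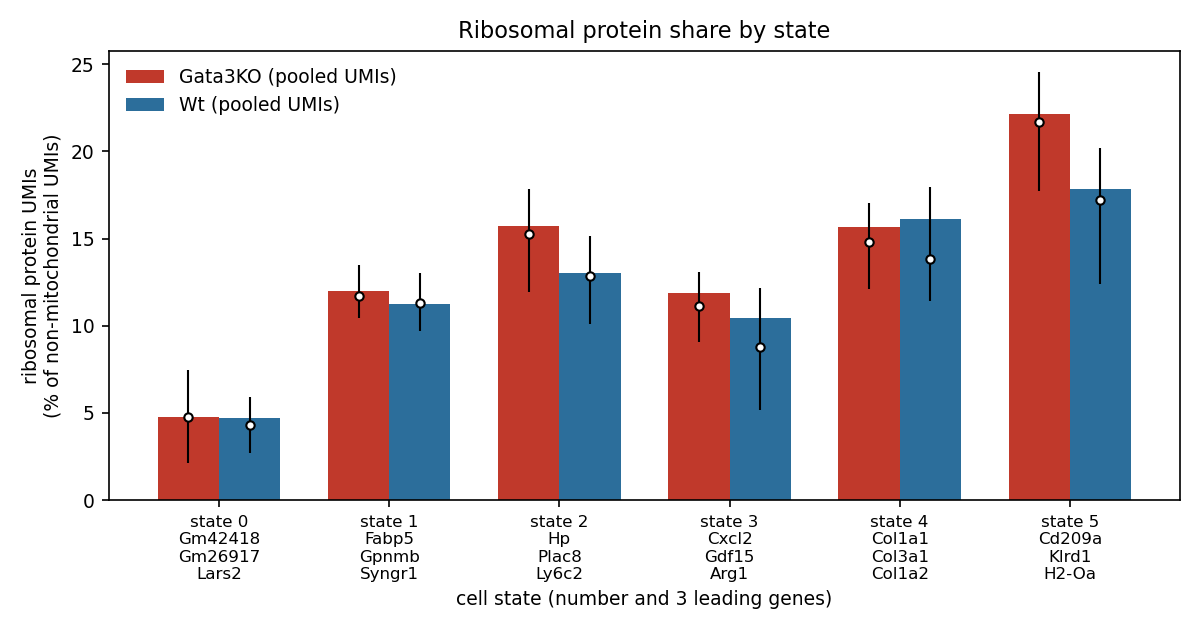
Ribosomal protein UMIs as a percentage of non-mitochondrial UMIs in the 6 states with at least 20 cells of each library, Gata3KO (red) left of Wt (blue); bars pool the UMIs of a state, open circles are the median cell and black lines the quartiles. State 5 has the tallest pair of bars (22.2% in Gata3KO and 17.8% in Wt) and state 0 the shortest, and only state 4 has a shorter bar in Gata3KO.

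In 5 of these 6 states the share was higher in Gata3KO. The difference was 4.34 percentage points in state 5 (46 Gata3KO cells and 103 Wt cells), 2.70 points in state 2 (43 Gata3KO cells and 243 Wt cells), 1.43 points in state 3 (177 Gata3KO cells and 69 Wt cells) and 0.726 points in state 1 (179 Gata3KO cells and 116 Wt cells). State 0 differed by 0.0669 points, and the interval of its log2 ratio held 0 (-0.0091 to 0.050); state 4 differed by -0.450 points. In states 1, 2, 3 and 5 the difference was above 0 under each of the 6 alternatives run, from 0.475 points in state 1 to 4.31 points in state 5; state 4 was at 2.05 points among its 36 Gata3KO cells and 23 Wt cells of 5000 to 20000 UMIs, and state 0 at -0.465 points with at most 5% mitochondrial UMIs and -0.0192 points without Malat1. The quartiles of single cells overlapped between libraries in every state: in state 5 they ran from 17.7% to 24.6% in Gata3KO and from 12.4% to 20.2% in Wt.

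Depth and the makeup of a state moved with these differences, and their part was not tested. Median depth was 11062 UMIs in Gata3KO and 8489 UMIs in Wt in state 5, and 16874 UMIs in Gata3KO and 7917 UMIs in Wt in state 3. Within cells of 10000 or more UMIs the differences were 0.58 points in state 1, 3.53 in state 2 and 0.97 in state 3. At that depth the difference was -0.35 points in state 4 and 3.32 points in state 5. Within cells of 2000 to under 5000 UMIs state 3 turned round, with 6.19% in Gata3KO and 7.59% in Wt, a difference of -1.39 points (19 Gata3KO cells and 12 Wt cells). Within cells of 5000 to under 10000 UMIs state 2 had 13.2% in both libraries (11 Gata3KO cells and 88 Wt cells). State 2 made up 6.62% of kept cells in Gata3KO and 24.5% in Wt, whereas state 1 made up 27.5% in Gata3KO and 11.7% in Wt and state 3 27.2% in Gata3KO and 6.97% in Wt. The class share is thus a mean over different mixtures of states in Gata3KO and in Wt.

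Gene by gene, the states repeated this order. At least 1.2-fold higher in Gata3KO were 53 of 78 genes in state 5 (18.6% of all genes compared there), 40 of 78 in state 2 (25.9%), 21 of 79 in state 3 (26.2%), 6 of 79 in state 1 (18.5%), 5 of 75 in state 0 (21.1%) and 1 of 79 in state 4 (25.7%). The median log2 ratio of the genes was 0.31 in state 5, 0.28 in state 2, 0.16 in state 3, 0.091 in state 1, -0.0077 in state 0 and -0.052 in state 4. In states 5 and 2 most genes of the set were higher together, whereas in states 0 and 4 they stood on both sides of 0. At least 1.2-fold lower were 10 of 75 genes in state 0 (28.3% of all genes compared there) and 2 of 79 in state 4 (26.9%).

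**Figure D2:**
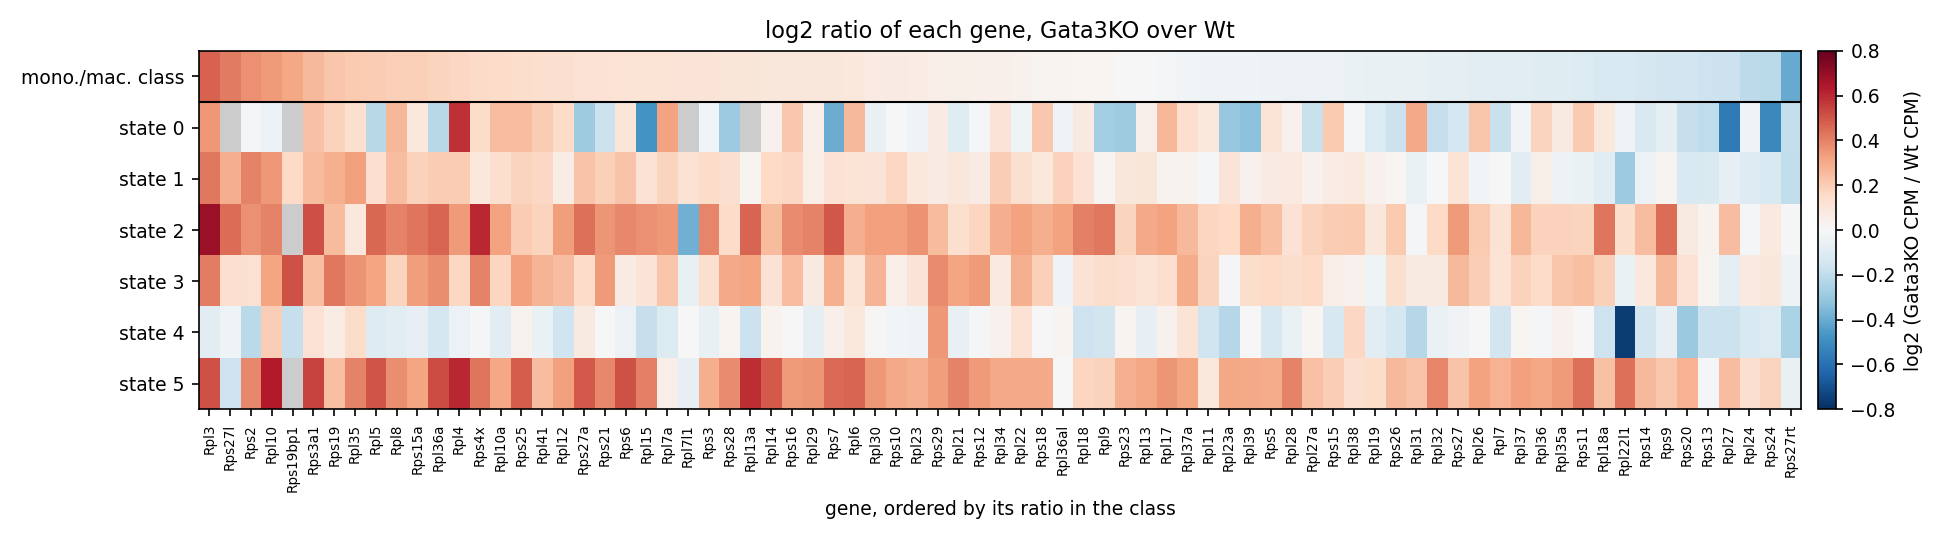
Log2 ratio of CPM, Gata3KO over Wt, for 77 of the 79 genes with at least 100 UMIs in monocytes and macrophages (columns, ordered by their ratio there) in that class and in 6 states (rows); red is higher in Gata3KO, blue is lower and grey marks fewer than 100 UMIs. The rows of states 2 and 5 are red for most genes (median log2 ratios over all genes of the set 0.28 and 0.31), and that of state 4 is pale with a median of -0.052.

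Rpl3 was higher in Gata3KO in 5 of the 6 states. Its widest ratio was in state 2, with 1804 CPM in Gata3KO and 1119 CPM in Wt (log2 ratio 0.69, interval 0.56 to 0.81), and in state 4 the ratio was -0.085. Rpl10 had its widest ratio in state 5, with 2269 CPM in Gata3KO and 1460.2 CPM in Wt (0.64, 0.52 to 0.76). Rps2 stood at 0.40 in state 1, 0.37 in state 2 and 0.39 in state 5, but at -0.21 in state 4. In state 4 Rpl3 and Rps2 were thus below 0, while Rpl10 was at 0.19; Rpl10 was below 0 in state 0 (-0.044).

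A few genes pointed the same way in every state compared. Rps3a1, Rpl34, Rpl14, Rps25, Rpl17, Rpl35, Rps29, Rps19, Rpl37a and Rpl6 were among the genes higher in Gata3KO in all 6 states, and Rps27rt was lower in all 6, by as little as -0.017 in state 2. Rps3a1, a small subunit protein near the mRNA exit, ran from 0.12 in state 4 to 0.54 in state 5. Rps24, lower in the class, was lower in states 0, 1 and 4 (-0.52, -0.12 and -0.11) and higher in states 2, 3 and 5 (0.076, 0.089 and 0.18). The genes singled out in this paragraph were chosen after their values were seen.

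Within each library the genes varied widely between states, and mostly together. State 0 was the lowest state for all 79 genes in both libraries, and state 5 the highest for 72 genes in Gata3KO and 52 in Wt. The median gene spanned 2.16 log2 units from its lowest to its highest state. Rps7, a small subunit protein that also binds Mdm2, had the widest span as a mean of both libraries, 3.38 log2 units in Gata3KO and 2.54 in Wt; in Wt alone Rps2 was widest (3.01). Rps7 had 3358 CPM in state 5 and 313.3 CPM in state 0 of Gata3KO, against 2451 CPM in state 5 and 412.1 CPM in state 0 of Wt. Rpl10, Rps27l, Rps2, Rpl36a and Rps27a followed in that mean; Rps27a is a fusion of ubiquitin to a small subunit protein.

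The narrowest span was that of Rpl36, a large subunit protein. It had 2174 CPM in state 5 and 1187 CPM in state 0 of Gata3KO, against 1753 CPM in state 5 and 1047 CPM in state 0 of Wt. Rps15, Rpl26, Rpl7l1 and Rpl6 were also narrow. Rpl26 had 3934 CPM in state 5 and 1544 CPM in state 0 of Gata3KO, against 3141 CPM in state 5 and 1322 CPM in state 0 of Wt. State 0, where every gene was lowest, had Gm42418 at 36.2% of non-mitochondrial UMIs in Gata3KO and 33.4% in Wt, and its part in the spans was not tested.

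Every deposited barcode was then placed in 7 bins of mitochondrial share, a measure used to spot damaged cells. The ribosomal protein share was 13.8, 12.2, 8.14, 6.55, 5.14, 5.27 and 5.92% in Gata3KO from the bin under 5% to that of 50% and above. In Wt it was 13.8, 11.3, 9.89, 7.67, 6.95, 7.09 and 8.66%. Pooled over depth, the share of both libraries was highest under 5%, lowest at 20 to 30% and higher again above that. This order did not hold at every depth in Wt. Among Wt barcodes under 2000 UMIs the share was 10.8% under 5%, 5.08% at 5 to 10% and 6.00% at 20 to 30%. It was 10.6% in the 42 such barcodes at 50% and above. At 5000 to under 10000 UMIs the lowest share of Wt was 7.45%, at 30 to 50%. In the bin under 5% the pooled difference was -0.00091 points, but it was 0.721 points under 2000 UMIs, 1.93 at 2000 to under 5000, 2.34 at 5000 to under 10000 and -0.451 at 10000 or more. Gata3KO was higher by 0.883 points at 5 to 10% and lower in each bin above, with differences of -1.75, -1.12, -1.81, -1.82 and -2.74 points.

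**Figure D3:**
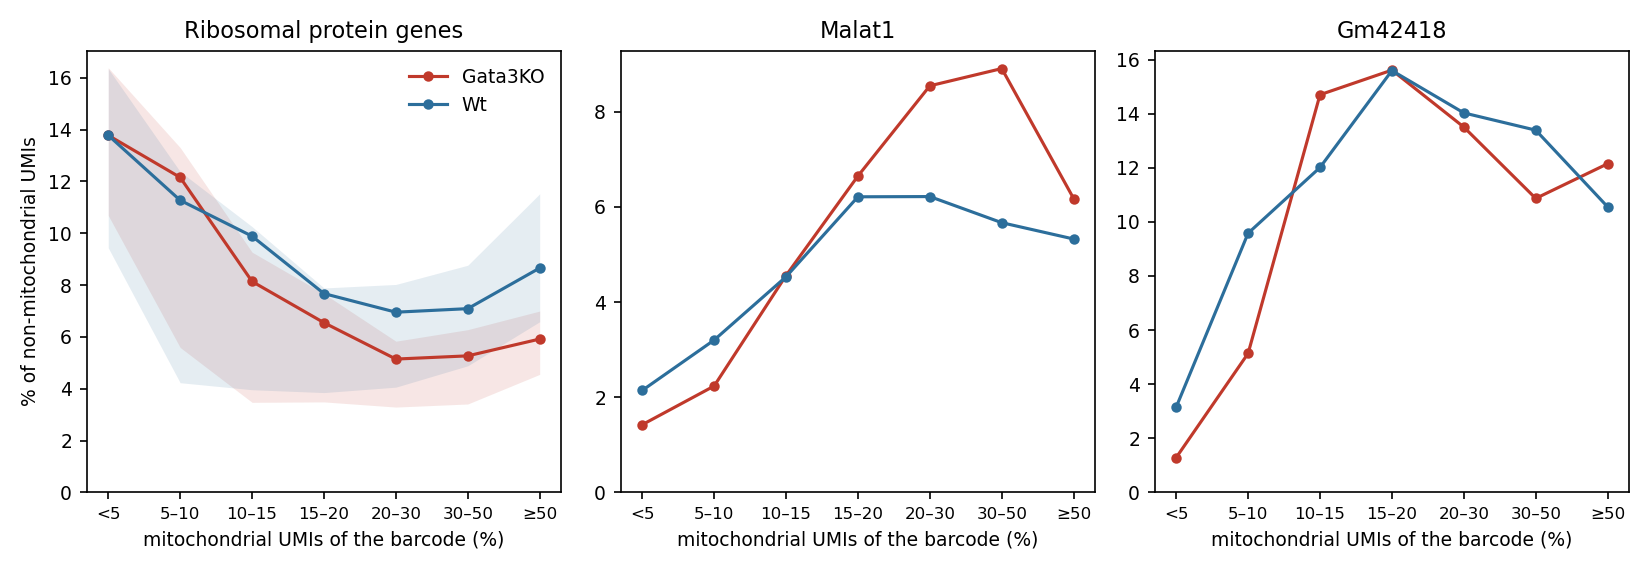
Ribosomal protein genes, Malat1 and Gm42418 as percentages of non-mitochondrial UMIs (3 panels) over 7 bins of mitochondrial share, Gata3KO in red and Wt in blue; lines pool the UMIs of a bin and the band of the left panel spans the quartiles of barcodes. The ribosomal protein lines start together at 13.8% and part above 10%, reaching 5.14% in Gata3KO and 6.95% in Wt at 20 to 30%, where Malat1 is at 8.55% in Gata3KO and 6.22% in Wt.

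Malat1 and Gm42418 moved the other way from the ribosomal protein genes, and depth moved with them. Malat1 was at 1.42% under 5% and 8.55% at 20 to 30% in Gata3KO, against 2.14% and 6.22% in the same bins of Wt. Gm42418 was at 1.28% and 13.5% in Gata3KO, against 3.15% and 14.0% in Wt. Median depth was 16422 UMIs under 5% and 2767 UMIs at 20 to 30% in Gata3KO, against 9491 UMIs and 2095 UMIs in Wt. Within barcodes of 2000 to under 5000 UMIs the share was 11.2% under 5% and 5.002% at 20 to 30% in Gata3KO, against 9.30% and 6.36% in Wt. At that depth Gata3KO was lower than Wt in 6 of 7 bins, at 5000 to under 10000 UMIs in 5 of 6 and at 10000 or more in 3 of 3, but under 2000 UMIs in only 3 of 6. The bin of 5 to 10%, higher in Gata3KO when pooled, was lower in Gata3KO within each depth range from 2000 UMIs on (-1.55, -1.50 and -0.426 points) and higher under 2000 UMIs (1.14 points). The part of Malat1 and Gm42418 was not tested beyond leaving them out of the total, which keeps the decrease in both libraries.

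Single genes were lower almost without exception in barcodes of high mitochondrial share. Between the bin under 5% and that of 20 to 30%, 79 of 79 genes were lower in Gata3KO, 78 of them at least 1.2-fold (38.1% of all genes compared), with a median log2 change of -1.52. In Wt 78 of 79 were lower, 77 of them at least 1.2-fold (37.5% of all genes compared), with a median of -1.005. The median over all genes compared was above 0 in both libraries, at 0.27 in Gata3KO and 0.14 in Wt. The size of the change differed much between genes, from -2.75 to -0.18 on the log2 scale in Gata3KO.

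Rpl10 had the largest decrease of both libraries. It had 243.4 CPM at 20 to 30% and 1641 CPM under 5% in Gata3KO, a log2 change of -2.75 (-2.87 to -2.64), and 389.1 CPM at 20 to 30% and 1303 CPM under 5% in Wt, a log2 change of -1.74 (-1.87 to -1.62). Rps15a, a small subunit protein, followed with -2.47 in Gata3KO and -1.60 in Wt. Rpl9 stood at -2.28 in Gata3KO and -1.60 in Wt, and Rps7 at -2.27 in Gata3KO and -1.56 in Wt. These are the first 4 genes whose start windows are printed above.

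Rpl36 barely differed between bins. Its level was 1341, 1387, 1375, 1339.8, 1183, 1171 and 1351 CPM over the 7 bins in Gata3KO and 1412, 1377, 1484, 1346, 1308, 1186 and 1419 CPM in Wt. Rpl26, at the exit of the peptide tunnel, stood at -0.39 in Gata3KO and -0.53 in Wt. Rpl6 stood at -0.47 in Gata3KO and -0.41 in Wt, Rps15 at -0.64 in Gata3KO and -0.57 in Wt, and Rpl31 at -0.67 in Gata3KO and -0.42 in Wt. Rps19bp1 was also close to 0, at -0.30 in Gata3KO and 0.041 in Wt, with 87 UMIs in the upper bin of Gata3KO and 49 in that of Wt. The genes of this comparison at 20 to 30% were chosen after their values were seen.

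**Figure D4:**
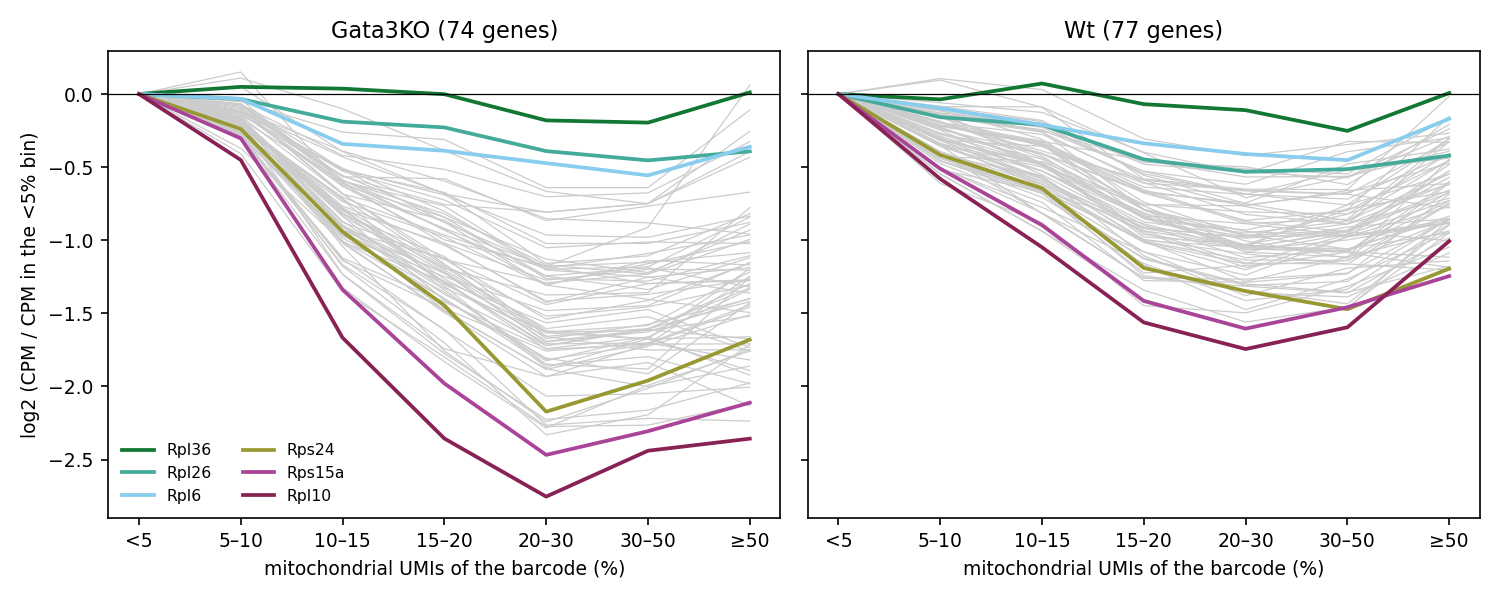
Level of each gene relative to the bin under 5% (log2 of CPM) over 7 bins of mitochondrial share, left Gata3KO (74 genes) and right Wt (77 genes), for genes with at least 100 UMIs in the lowest bin and at least 10 in every bin; 6 genes are coloured. Rpl36 stays near 0 in both panels while Rpl10 drops to -2.75 in Gata3KO and -1.74 in Wt at 20 to 30%.

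The genes kept much the same order in both libraries. Across the 79 genes the log2 changes had a Spearman correlation of 0.889 and a Pearson correlation of 0.909, given as a description since the libraries share chemistry, reference and base composition. Of the 20 genes with the largest decrease, 16 were shared between the libraries, and of the 20 with the smallest, 15. The start windows did not separate them: a run of at least 6 C or T was present in 9 of the 15 largest decreases found in the table and 10 of the 17 smallest in Gata3KO, and in 9 of 15 and 11 of 16 in Wt. The GC content of the transcript had a Spearman correlation of 0.223 with the change in Gata3KO and 0.245 in Wt, and transcript length one of -0.050 in Gata3KO and -0.119 in Wt.

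**Figure D5:**
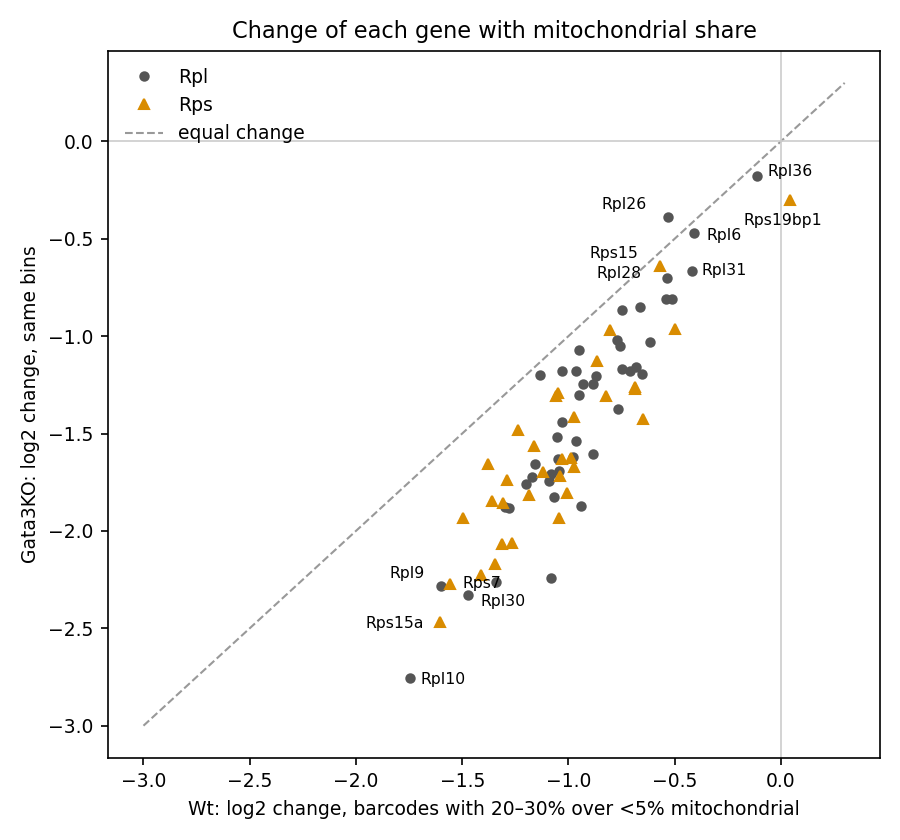
Log2 change of CPM between the bin of 20 to 30% and that under 5% for 79 genes, Gata3KO on the vertical and Wt on the horizontal axis; dots are Rpl genes, triangles Rps genes and the dashed line marks equal change. Most genes lie below the line, with medians of -1.52 in Gata3KO and -1.005 in Wt, and the order is similar (Spearman 0.889).

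In the bin of 50% and above, which held 48 barcodes in Gata3KO and 83 in Wt, 77 of 79 genes were lower than under 5% in Gata3KO, 75 of them at least 1.2-fold (38.0% of all genes compared). In Wt 78 of 79 were lower, 72 of them at least 1.2-fold (38.9%). The largest decreases in Gata3KO were those of Rpl10 (-2.36), Rpl39 (-2.24), Rps27 (-2.13), Rps7 (-2.11), Rps15a (-2.11) and Rps13 (-2.01), and the smallest those of Rpl22l1 (0.060), Rpl36 (0.011), Rps15 (-0.11), Rpl10a (-0.26), Rpl28 (-0.33) and Rpl7l1 (-0.35). The upper bin of Gata3KO held only 22 UMIs of Rpl22l1 and 5 UMIs of Rpl7l1. The largest decreases named also rest on few UMIs there, from 23 of Rpl10 to 39 of Rpl39, so their order is uncertain. Among the decreases in Wt Rpl7l1 (-2.23) and Rps19bp1 (-1.90) came first, but on 2 UMIs and 1 UMI in the upper bin. They were ahead of Rps15a (-1.24), Rpl27 (-1.20), Rps24 (-1.19) and Rpl36al (-1.19), the last on 22 UMIs in the upper bin. Among the smallest in Wt were those of Rpl36 (0.0069), Rpl5 (-0.15), Rpl10a (-0.16) and Rpl6 (-0.17).

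Set against Wt within the same bin, the genes were lower in Gata3KO in every bin from 10% on. At least 1.2-fold lower were 46 of 79 genes at 10 to 15% (22.1% of all genes compared), 36 of 78 at 15 to 20% (21.3%), 60 of 79 at 20 to 30% (24.6%) and 64 of 78 at 30 to 50% (22.2%), with median log2 ratios of -0.28, -0.26, -0.52 and -0.50. At 50% and above they were 50 of 65, where 56.9% of the 181 genes compared were. Only 116 of these 181 genes were outside the set, so that this share is made in good part by the set itself. The median log2 ratio there was -0.66 for the 65 genes and -0.16 for the 116 others. Under 5% the median was 0.021, with 4 of 79 genes at least 1.2-fold higher (27.1%), and at 5 to 10% it was 0.11.

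Ribosome genes outside the rule did not all follow it. Rpsa, a small subunit protein also known as a laminin receptor, had 2929 CPM in monocytes and macrophages of Gata3KO and 1825 CPM in those of Wt, a log2 ratio of 0.68 (0.64 to 0.72). It was higher in Gata3KO in all 6 states, by 0.57 to 1.06 on the log2 scale, and in all 7 bins. With mitochondrial share it ran opposite to the genes of the rule: it had 8287 CPM at 50% and above and 3378 CPM under 5% in Gata3KO, against 3580 CPM and 2405 CPM in Wt. The stalk proteins Rplp1 (0.16), Rplp0 (0.063) and Rplp2 (0.031), which recruit elongation factors, and Rack1 (0.14), a scaffold on the small subunit, were close to the genes of the rule. Fau (-0.15), a small subunit protein made as a fusion to a ubiquitin-like protein, was lower in the class as a whole. By state, however, Fau was higher in Gata3KO in states 0, 2, 3 and 5 (0.18, 0.26, 0.14 and 0.25). It was lower in states 1 and 4 (-0.075 and -0.0031).

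Other genes of the translation machinery were compared in monocytes and macrophages. Among all 3215 genes compared there, 1861 were higher and 1354 lower in Gata3KO. Of 8 elongation factors 7 were higher and 1 lower in Gata3KO, with a median log2 ratio of 0.042. Eef1a1, which brings aminoacyl-tRNA to the ribosome, had 4687 CPM in Gata3KO and 3817 CPM in Wt (0.30). Of 28 initiation factors 18 were higher and 10 lower (median 0.087), from Eif2s3x (0.70), Eif5 (0.43) and Eif4g2 (0.41) to Eif4g1 (-0.11), Eif4a2 (-0.12) and Eif3d (-0.15). Of 12 nascent chain and ribosome-associated genes 9 were higher and 3 lower (median 0.096), with Ssr3 (0.39) and Npm1 (0.24) at the top and Sec61g (-0.088) at the bottom.

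Of 26 ribosome biogenesis genes 13 were higher and 13 lower (median 0.010), from Utp4 (0.41) to Polr1a (-0.50), a subunit of RNA polymerase I. Of 22 genes of growth signalling 15 were higher and 7 lower (median 0.14). Lamtor4, part of the complex that recruits mTORC1 to lysosomes, had 252.5 CPM in Gata3KO and 152.2 CPM in Wt (0.73). Larp1, which binds TOP mRNAs, had 57.1 CPM in Gata3KO and 87.0 CPM in Wt (-0.61), Max, the partner of Myc, 58.6 CPM in Gata3KO and 99.01 CPM in Wt (-0.76), and Rptor, a subunit of mTORC1, stood at -0.66. Medians of the lists of translation, biogenesis and growth signalling genes ran from 0.010 to 0.14, beside 0.059 over all genes compared. The intervals of low genes such as Utp4 (-0.15 to 0.99) held 0.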

How the data were processed

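UMI counts per gene and cell were deposited by the authors as 1 matrix per library; the submitters' processing notes name Cell Ranger 3.0.1, Seurat 3.0.2, R 3.6.1 and mm10. How the authors chose barcodes is not given in the sources used here. Kept cells (at least 500 UMIs, 200 genes, at most 10% mitochondrial UMIs) were clustered with scanpy 1.11.5 and leidenalg 0.10.2 (2000 variable genes, 30 components, 15 neighbours, resolution 0.6). States were named from marker lists; the minimum score of 1 was set after seeing the data. Scrublet marked 4 of 650 Gata3KO cells and 0 of 990 Wt cells as doublets, which were left in. Shares have Clopper-Pearson intervals, log2 ratios exact conditional binomial ones and medians order-statistic ones over genes, with scipy 1.17.1 at 95%. The interval of a difference of shares is a normal approximation. Ratios needed 100 UMIs. Gene positions are those of GENCODE for GRCm38, the assembly that mm10 names. The genes compared for background had at least 50 CPM. Calculations were tested on simulated data. A few genes are not reported here by name but stay in every count. Members and lists were chosen with earlier results of these data known. Named genes were the 8 widest ratios each way, the 6 highest levels, the 6 widest state ranges, the 6 largest and smallest changes to the highest mitochondrial bin, paralogs, and the 3 highest and lowest of each list.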

Additional observations from a re-analysis of the deposited data

Results flagged for a closer look

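The difference in ribosomal protein share between Gata3KO and Wt pointed opposite ways in different states: it was -0.450 percentage points in state 4, led by collagen genes, and 4.34 points in the conventional dendritic 2-like state 5. State 4 was at 2.05 points among cells of 5000 to 20000 UMIs. It was at -0.81 points under 2000 UMIs (25 Gata3KO cells and 11 Wt cells). At 10000 or more UMIs it was at -0.35 points (67 Gata3KO cells and 54 Wt cells). The difference also pointed opposite ways between bins of mitochondrial share, at 0.883 points in the bin of 5 to 10% and -2.74 points in that of 50% and above. The bin of 5 to 10% turned with depth, at -1.55, -1.50 and -0.426 points in the depth ranges from 2000 UMIs on and 1.14 points under 2000 UMIs. With 1 library per group the differences between states and between bins were not tested.

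Of 79 genes, 6 were at least 1.2-fold higher in Gata3KO in one state and at least 1.2-fold lower in another, with both counting intervals off 0. The same count was not made over all genes, so it cannot be read as many or few. Rpl15 had log2 ratios of -0.48 in state 0 and 0.40 in state 5, and Rps7 -0.40 in state 0 and 0.50 in state 2. Rpl39 stood at -0.33 in state 0 and 0.30 in state 5, and Rps23 at -0.28 in state 0 and 0.29 in state 5. Rpl22l1 stood at -0.76 in state 4 and 0.44 in state 5, and Rps20 at -0.30 in state 4 and 0.28 in state 5. These differences were not tested either.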

How the results depend on the processing

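No paired analysis was possible because each group had 1 library. The class share difference of 0.265 points was 0.921 under the stricter cell filter (1000 UMIs, 5% mitochondrial; 206 Gata3KO cells and 83 Wt cells), 0.444 over all kept cells, 0.848 and 0.443 at clustering resolutions 0.3 and 1.2, 0.318 with ribosomal protein and mitochondrial genes used in clustering, 1.62 with states counted alike, 0.145 thinned to 2000 UMIs, 0.309 as a mean of cells and 0.207 without Malat1. It reversed to -0.866 over every barcode and to -0.0512 without Malat1, Gm42418 and AY036118. The median log2 ratio of 0.040 was 0.108 under the stricter filter, -0.110 over every barcode, 0.109 at resolution 0.3, 0.191 with states alike and -0.018 with median-of-ratios factors. The 5 genes at least 1.2-fold higher became 9 under the stricter filter, 0 over every barcode, 17 with states alike and 8 with cells alike. The 1 gene at least 1.2-fold lower became 0 under the stricter filter, at resolution 0.3 and with states alike, 2 at a mitochondrial limit of 20% or without a UMI minimum, 3 with median-of-ratios factors and 11 over every barcode. Reversed genes were Rps19bp1 (-0.14), Rps20 (0.072) and Rpl24 (0.00046) under the stricter filter, Rps9 (0.090) at resolution 0.3, and Rps14 (0.11), Rps9 (0.29), Rps20 (0.025), Rpl27 (0.060) and Rps24 (0.019) with states alike. State 4 reversed to 2.05 points at 5000 to 20000 UMIs. The share at 50% and above minus that under 5% was -7.86 points in Gata3KO and -5.12 in Wt. In Gata3KO it was -7.64 as a mean of barcodes, -10.8 over all UMIs, -7.67 without Malat1, -6.88 without the 3 RNAs, -5.25 at 2000 to under 5000 UMIs and -8.64 with 20 to 30% as the upper bin. In Wt the same settings gave -3.33, -9.75, -4.94, -4.22, -0.890 and -6.83, and it was -5.92 at 2000 UMIs or more, -5.46 with bins of 30% and above and under 10%, and -3.28 thinned to 1000 UMIs. The causes were not tested. Each of these values rests on 1 library per group, and a difference between mice cannot be told apart from one between libraries.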

Other observations

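Rpsa, the ribosome gene outside the rule with the widest ratio, lies at chr9:120127689-120132369 (GRCm38.p6, plus strand), 57.8 kb from Cx3cr1, the gene that drives Cre in Gata3KO. Cx3cr1 had 393.3 CPM in monocytes and macrophages of Gata3KO and 286.9 CPM in those of Wt, a log2 ratio of 0.46 (0.36 to 0.55). Among the 14 genes listed within 500 kb, Csrnp1 stood at 0.28 (0.023 to 0.55), Eif1b at 0.26 (0.078 to 0.44) and Slc25a38 at -0.43 (-0.86 to -0.0087). Whether the allele at Cx3cr1 or the strain background has a part in these values was not tested.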
